A study of Mus musculus with 8 samples.

Results

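The proteasome genes of the mouse kidney were compared between mice with a myeloid-specific knockout of FoxO1 and controls, after ischemia-reperfusion (I/R), an injury made by clamping the renal vessels and releasing them. Members were all genes whose symbol starts with Psm, then a letter from a to g and a number, and which held at least 80 counts over the 8 libraries. Of 25239 genes in the table, 50 had such a symbol and 48 passed. The 2 left out were Psmb11, the beta subunit of the thymus, with a total of 4 counts and 0 to 2 per library, and Psma8, an alpha subunit of the testis, with a total of 48 and 4 to 10 per library. The member nearest the limit was Psmc3ip, with a total of 1492 counts. All 48 members also passed the filter on low counts that the test applied, which left 15000 genes.

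The knockout group held 4 libraries, called knockout 1 to 4 here, from mice of the line Lyz2-CreERT2 FoxO1flox/flox. Lyz2 is active in macrophages, monocytes and neutrophils, so the deletion is aimed at those cells and not at the tubule cells that make up most of the kidney. The control group held 4 libraries, control 1 to 4, with the genotype label WT; whether these mice carried Cre or the floxed allele is not given in the sources used here. For all 8 samples the labels list an age of 8 to 10 weeks, tamoxifen at 75 mg per kg on 5 days, removal of the right kidney and clamping of the left renal vessels for 35 minutes, with no separate statement that controls received tamoxifen. The kidney was digested with collagenase and 1.3 µg of RNA went into each library. The time from reperfusion to collection is not given, and the comparison has no uninjured kidney. The labels do not state that each library is a separate animal, so every p-value here reflects only how these libraries scatter, which may be partly technical.

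The proteasome is the large protease that degrades proteins tagged with ubiquitin. Its barrel, the 20S core, is built of rings of alpha subunits, which form the gate, around rings of beta subunits, of which 3 kinds cut peptide bonds. The 19S particle caps the core: its base unfolds the substrate with a ring of ATPases, and its lid and base hold the receptors and the enzyme that removes the ubiquitin chain. Dedicated chaperones assemble both parts, and under interferon-gamma 3 inducible subunits replace the catalytic ones to form the immunoproteasome, which shapes the peptides shown on MHC class I. When proteasome activity is short, the transcription factor NRF1 (gene Nfe2l1) is known to raise the transcription of nearly all subunits together through antioxidant response elements. In human embryonic stem cells the FoxO family member FOXO4 is known to act on PSMD11, the ortholog of Psmd11, which is one background reason to look at these genes in a FoxO1 knockout.

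Most proteasome genes had lower levels in the knockout kidneys, by a small margin, and a minority passed the test. By edgeR's quasi-likelihood test, 8 of 48 members fell at an adjusted p under 0.05 (16.7%), where 6.28% of all 15000 genes tested fell and 12.7% changed in either direction. In the same edgeR test 0 members rose, where 6.45% of all genes rose. The count of members that rose was also 0 at an unadjusted p under 0.05, in DESeq2 and in limma-voom. The log2 fold change, knockout over control, was below 0 for 44 of 48 members (91.7%), against 51.2% of all genes tested. The members had a median log2 fold change of -0.29 with a range from -0.65 to 0.37, and all genes tested had a median of -0.01. In 17 members every knockout library lay below every control library, where 10.6% of all genes did, and in 1 member, Psmd3, every knockout library lay above, where 11.1% of all genes did. At an unadjusted p under 0.05 in edgeR, 21 members were lower, against 14.6% of all genes.

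Summed over the 48 members, the level was 6411, 6257, 5465 and 5206 CPM in knockouts 1 to 4 and 6850, 7167, 6896 and 6918 CPM in controls 1 to 4 (CPM are counts scaled by library size, here with TMM factors). The knockout mean was 5835 ± 590 CPM and the control mean 6958 ± 142 CPM (SD, n = 4 each), a ratio of 0.839. The groups did not overlap, and knockouts 3 and 4 were the lowest libraries. The share of all counts that fell on members was 0.613%, 0.622%, 0.558% and 0.554% in knockouts 1 to 4 and 0.735%, 0.68%, 0.691% and 0.655% in controls 1 to 4. These are levels of whole tissue, in which fewer cells of a type and less RNA per cell cannot be told apart.

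The number of members that passed depended on the libraries and the tool, and so did the background. It was 7 without knockout 1 (14.6% of members, against 6.14% of all genes), 2 without knockout 2 (4.17%, against 3.41%), 3 without knockout 3 (6.25%, against 3.71%) and 1 without knockout 4 (2.08%, against 2.97%). It was 4 without control 1 (8.33%, against 5% of all genes), 3 without control 2 (6.25%, against 6.47%), 2 without control 3 (4.17%, against 3.54%) and 3 without control 4 (6.25%, against 4.97%). Without knockout 2, knockout 4, control 2, control 3 or control 4 the share of members called was near or below that of all genes. In those fits the calls alone say nothing about proteasome genes. DESeq2 called 11 members lower (22.9%, against 10% of all genes) and limma-voom with quality weights 16 (33.3%, against 9.65%). Other settings called 7 with RLE factors (14.6%, against 6.05% of all genes) and 7 with upper-quartile factors (14.6%, against 6.17%). Library totals only gave 4 (8.33%, against 4.93%) and no filter gave 3 (6.25%, against 4.5%). Leaving out control 2 and knockout 1 together gave 4 (8.33%, against 5.96%). Leaving out control 1 and knockout 3 together gave 1 (2.08%, against 3.3%). The replicate number as a block gave 1 (2.08%, against 2.79%). In these last 2 fits too the share of members was below that of all genes. Direction was steadier than the calls: 39 members were below 0 in the main test and in all 18 alternatives, Psmb8 and Psmd3 were above 0 in all of them, and 7 members differed in direction in at least 1.

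**Figure D1:**
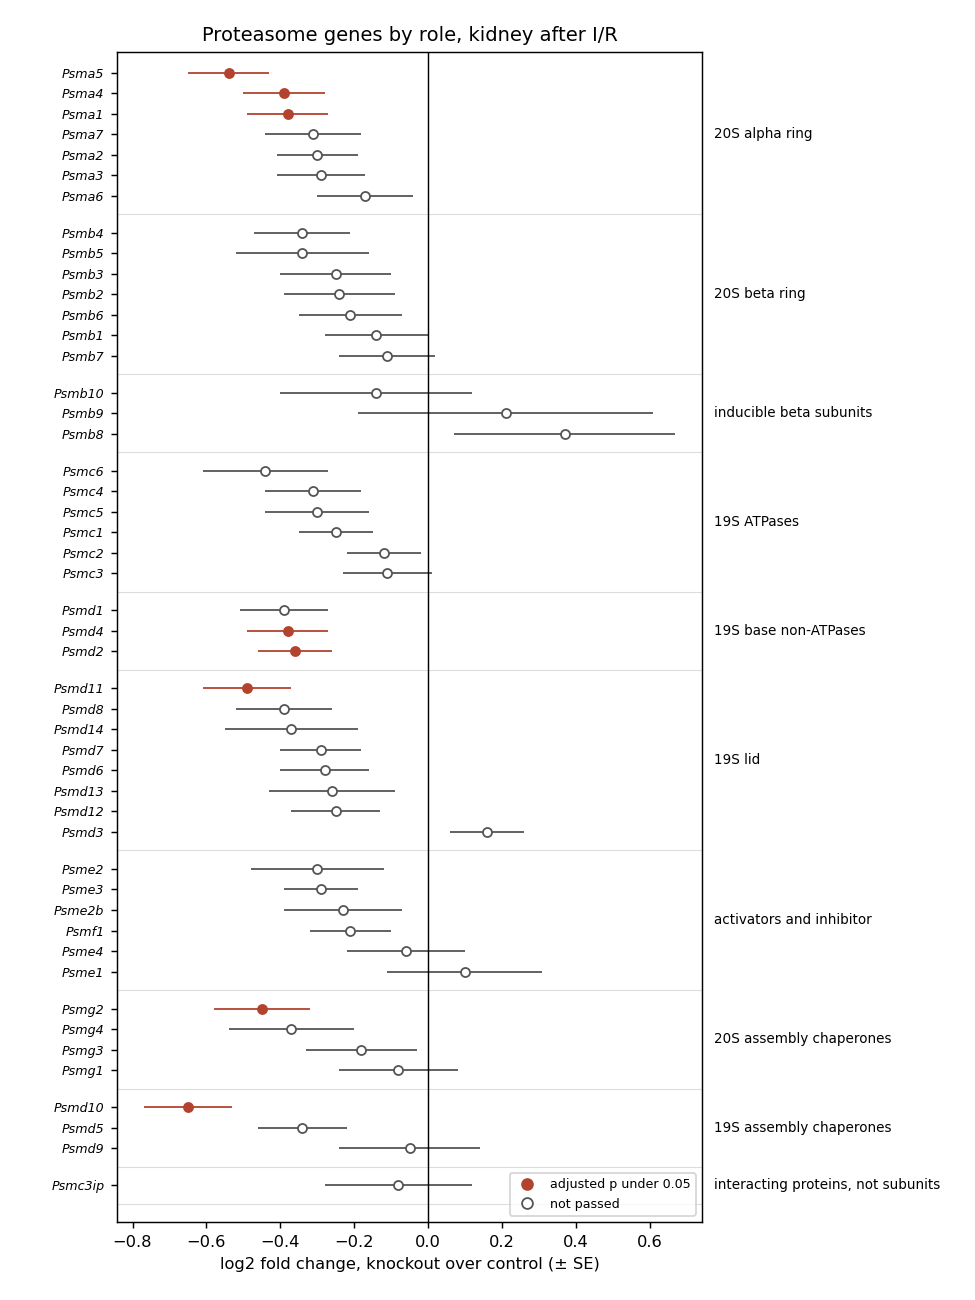
Log2 fold change (knockout over control) of the 48 proteasome genes, grouped by role, with bars of 1 standard error from edgeR over 4 against 4 libraries and filled points for an adjusted p under 0.05. The 8 filled points all lie left of 0, between -0.65 and -0.36, and 4 genes (Psmb8, Psmb9, Psmd3 and Psme1) lie right of 0.

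Foxo1, which the design deletes, had 41.4, 41.0, 42.9 and 39.3 CPM in knockouts 1 to 4 and 34.5, 33.4, 33.0 and 33.9 CPM in controls 1 to 4; other kidney cells express it too, so this does not check the deletion in myeloid cells. Library totals ran from 29044405 to 34738914 counts in knockouts and from 32627652 to 35530421 counts in controls, and 16873 to 17285 genes were detected per library. Markers of the labelled tissue were abundant: the 8 proximal tubule markers summed to 20774 to 30847 CPM in knockouts and 9618 to 20114 CPM in controls. Other marker lists separated the same groups as the proteasome genes. The 8 injured tubule markers summed to 5189 to 6044 CPM in knockouts and 13695 to 26960 CPM in controls, and 7 of the 8 fell. The 6 neutrophil markers summed to 5.53 to 15.3 CPM in knockouts and 26.3 to 162 CPM in controls, and all 5 that passed the filter on low counts fell. Of 8 immediate early genes, which can respond to tissue digestion, 7 fell, with sums of 231 to 254 CPM in knockouts and 422 to 656 CPM in controls. The 7 markers of the thick ascending limb and distal nephron went the other way. They summed to 8226 to 8767 CPM in knockouts and 2566 to 4517 CPM in controls, and 6 of them rose. Over all genes tested 6.28% fell and 6.45% rose. No marker on these 5 lists stood at 0 in all 8 libraries, though Retnlg had 0 counts in knockout 4 and Ly6g in controls 3 and 4. Their part in the proteasome result was not tested.

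Promoters were read from the RefSeq promoter table, which gives 250 bases before and 50 bases after the start of each gene (assembly GRCm38.p6; 41 of the 48 members matched by symbol). Shown are 4 of them as examples of the motifs searched, 5′ to 3′ on the strand of the gene, with a matched motif in capitals. Of these genes Psmd10 passed the test and the other 3 did not. They are Psmd10, the gene with the largest fall, with its CCAAT boxes; Psmc6 and Psmb5, an ATPase and a catalytic subunit, each with an antioxidant response element; and Psme1, an activator gene that interferon is known to induce, with an interferon-stimulated response element. Psmd10 lies at chrX:140956662-140956961 on the minus strand, Psmc6 at chr14:45329574-45329873 on the plus strand, Psmb5 at chr14:54617946-54618245 on the minus strand and Psme1 at chr14:55578244-55578543 on the plus strand. The first 250 letters of each line lie upstream of the start.
Psmd10: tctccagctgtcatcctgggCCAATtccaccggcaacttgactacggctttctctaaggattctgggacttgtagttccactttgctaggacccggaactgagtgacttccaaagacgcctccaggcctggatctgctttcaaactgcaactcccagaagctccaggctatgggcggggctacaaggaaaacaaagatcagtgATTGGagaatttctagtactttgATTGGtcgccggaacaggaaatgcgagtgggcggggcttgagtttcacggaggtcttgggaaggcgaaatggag
Psmc6: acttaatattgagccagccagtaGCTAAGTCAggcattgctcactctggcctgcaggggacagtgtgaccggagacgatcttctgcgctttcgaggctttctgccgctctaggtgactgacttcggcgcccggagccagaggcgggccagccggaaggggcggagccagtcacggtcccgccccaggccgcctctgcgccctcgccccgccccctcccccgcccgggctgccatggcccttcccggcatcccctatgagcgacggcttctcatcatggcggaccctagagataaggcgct
Psmb5: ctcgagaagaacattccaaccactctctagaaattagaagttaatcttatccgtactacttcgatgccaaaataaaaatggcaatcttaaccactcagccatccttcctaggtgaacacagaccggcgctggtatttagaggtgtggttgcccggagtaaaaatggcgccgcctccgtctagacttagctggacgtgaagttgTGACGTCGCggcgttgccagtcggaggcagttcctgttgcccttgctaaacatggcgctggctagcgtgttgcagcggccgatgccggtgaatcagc
Psme1: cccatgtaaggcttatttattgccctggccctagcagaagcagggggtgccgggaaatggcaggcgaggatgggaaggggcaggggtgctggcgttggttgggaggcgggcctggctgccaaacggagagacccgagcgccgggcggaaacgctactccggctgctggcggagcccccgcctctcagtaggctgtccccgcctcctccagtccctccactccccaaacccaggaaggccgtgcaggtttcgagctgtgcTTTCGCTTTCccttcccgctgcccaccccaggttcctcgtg

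Each motif was searched on both strands in the same 300 bases. The antioxidant response element, TGACNNNGC, was in 6 of 41 member promoters (14.6%) and in 12.5% of the 27025 promoters in the table, or 14.7% of the 11818 that belong to tested genes. The 6 were Psmb5, Psmb6, Psmc6, Psmd12, Psmd9 and Psme4, and none of these passed the test. The CCAAT box was in 14 of 41 (34.1%) and in 38% of the promoters of tested genes. Psmd10 held 3 copies, as did Psma3, Psmd4 and Psmd14. Psma3 and Psmd14 did not pass the test. The interferon-stimulated response element, spelled as GAAA, any 2 bases and GAAA again, was in 5 of 41 (12.2%), namely Psmb3, Psmd4, Psmd9, Psme1 and Psmg4, and in 3.18% of those of tested genes. The forkhead motif GTAAACA, the core that FoxO proteins are known to bind, was in 0 of 41 and in 2.7% of those of tested genes. A match describes these letters only and says nothing about whether a factor binds there.

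In the alpha ring, which forms the gate of the core, 3 of 7 genes fell, 0 rose and 4 did not pass. Of all genes tested 6.28% fell. The median log2 fold change of the ring was -0.31. The 7 genes together stood at 970, 1019, 858 and 792 CPM in knockouts 1 to 4 and at 1195, 1098, 1172 and 1092 CPM in controls 1 to 4. Psma5 had 73.3, 78.7, 65.4 and 62.9 CPM in the knockout libraries and 111, 93.8, 106 and 96.2 CPM in the control libraries. The groups were apart, and the fall was 1.45-fold (log2 fold change -0.54, SE 0.11, adjusted p = 0.0139 in edgeR). Psma4 had 126, 144, 132 and 113 CPM in knockouts and 164, 165, 176 and 169 CPM in controls. It fell 1.31-fold (log2 fold change -0.39, SE 0.11, adjusted p = 0.0409 in edgeR), with no overlap. Psma1 had 135, 135, 122 and 114 CPM in knockouts and 178, 160, 165 and 154 CPM in controls. It fell 1.30-fold (log2 fold change -0.38, SE 0.11, adjusted p = 0.0439 in edgeR), and again every knockout was below every control.

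The calls of Psma4 and Psma1 were close to the threshold. In the 8 fits that left out 1 library, Psma4 passed in none (edgeR adjusted p = 0.0504 to 0.118), Psma1 passed only without knockout 1 (0.044, against 0.063 to 0.128 in the others) and Psma5 missed it only without knockout 4 (0.052). Groups were also apart for Psma7 (log2 fold change -0.31) and Psma2 (-0.30), with edgeR adjusted p = 0.143 and 0.105, so neither was called. Psma3 and Psma6 had overlapping groups and log2 fold changes of -0.29 and -0.17. DESeq2 called 3 of the 7 lower and limma-voom 4.

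In the beta ring 0 of 7 constitutive genes passed the test by edgeR (1 at an unadjusted p under 0.05; 0 in DESeq2 and 2 in limma-voom), with a median log2 fold change of -0.24. Psmb4, the core subunit with the highest level per gene length of all 48 members, came nearest. It had 398, 401, 319 and 299 CPM in knockouts and 430, 445, 442 and 474 CPM in controls. Every knockout lay below every control, with a log2 fold change of -0.34 (95% interval -0.63 to -0.05, adjusted p = 0.115 in edgeR). Psmb3, a structural subunit, had 212, 209, 146 and 144 CPM in knockouts and 208, 231, 200 and 208 CPM in controls. Knockouts 1 and 2 stood among the controls and knockouts 3 and 4 below them, for a log2 fold change of -0.25 (adjusted p = 0.306 in edgeR).

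The 3 constitutive catalytic subunits behaved alike in that knockouts 3 and 4 held the lowest values. Psmb5, which carries the chymotrypsin-like activity, had 269, 220, 197 and 189 CPM in knockouts and 207, 341, 255 and 303 CPM in controls. Control 1 lay below knockouts 1 and 2, and the log2 fold change of -0.34 had a 95% interval from -0.73 to 0.05 (adjusted p = 0.23 in edgeR). Psmb6, which carries the caspase-like activity, had 297, 301, 238 and 220 CPM in knockouts and 269, 332, 297 and 326 CPM in controls, and overlapped (log2 fold change -0.21). Psmb7, which carries the trypsin-like activity, had 231, 243, 186 and 175 CPM in knockouts and 236, 222, 238 and 202 CPM in controls, and overlapped too (log2 fold change -0.11). Psmb7 shares 11.8% of its exonic bases with Nek6 on the opposite strand, and without strand marking such reads cannot be told apart. The other 2 genes, Psmb1 and Psmb2, had log2 fold changes of -0.14 and -0.24.

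**Figure D2:**
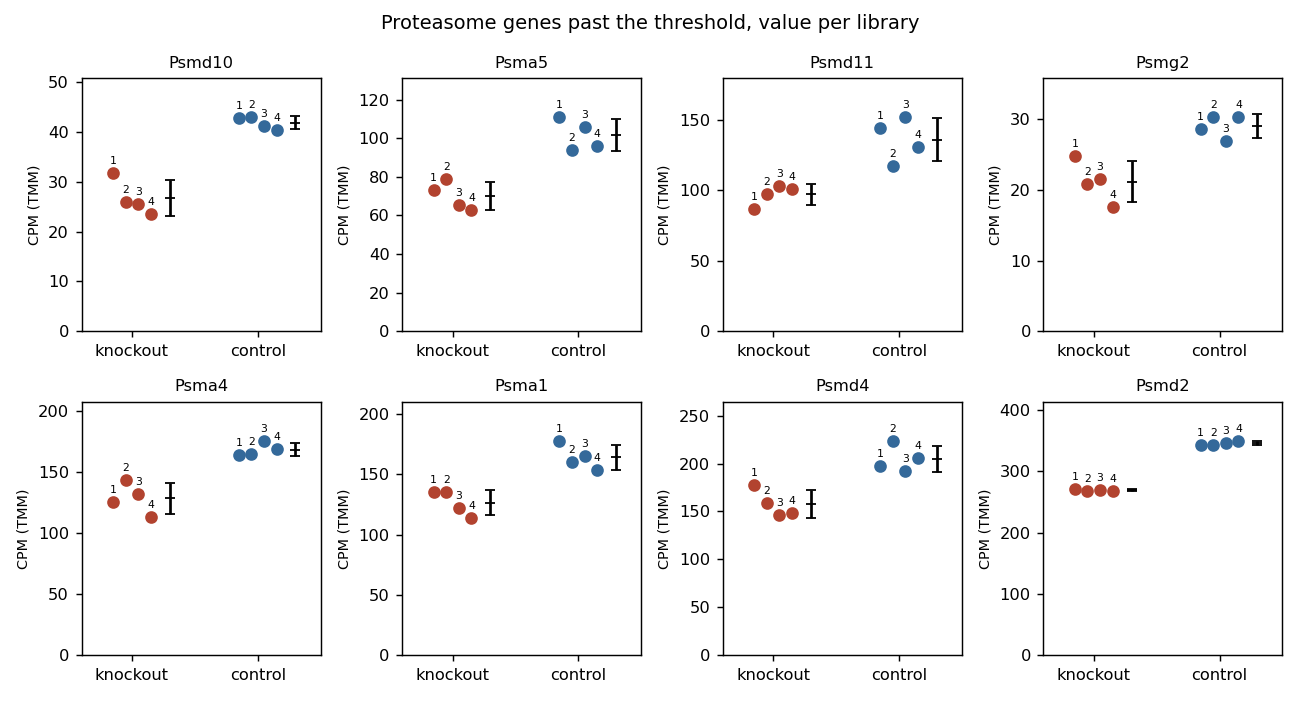
Level in CPM with TMM scaling (axes start at 0) of the 8 proteasome genes that passed the test, 1 numbered point per library, with the mean and 1 SD of 4 libraries beside each group. In each panel all 4 knockout points lie below all 4 control points, with the largest fold difference for Psmd10 (26.7 against 41.8 CPM on average) and the tightest groups for Psmd2.

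The inducible subunits of the immunoproteasome went with single libraries more than with the genotype. By edgeR 0 of 3 passed (0 at an unadjusted p under 0.05, in DESeq2 and in limma-voom). Psmb8, the inducible counterpart of Psmb5, had 50.1, 32.4, 25.0 and 28.0 CPM in knockouts and 20.6, 43.3, 18.2 and 23.2 CPM in controls. Knockout 1 and control 2 were the highest libraries, and the log2 fold change of 0.37 had a 95% interval from -0.30 to 1.03 (adjusted p = 0.455 in edgeR). It was 0.12 without knockout 1 and 0.71 without control 2. Psmb9, the counterpart of Psmb6, had 17.6, 8.43, 6.37 and 6.91 CPM in knockouts and 5.28, 14.5, 5.56 and 8.71 CPM in controls. The same 2 libraries stood out, with a log2 fold change of 0.21 (95% interval -0.69 to 1.1, adjusted p = 0.775 in edgeR), which was -0.23 without knockout 1 and 0.59 without control 2. Psmb10, the counterpart of Psmb7, had 64.4, 39.7, 30.8 and 39.1 CPM in knockouts and 31.2, 65.7, 43.5 and 51.0 CPM in controls. Its log2 fold change was -0.14 (95% interval -0.71 to 0.44, adjusted p = 0.767 in edgeR). The intervals of Psmb9 and Psmb10 include falls larger than those of the 8 genes that fell. That of Psmb8 includes rises of such a size but no fall as large.

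Some other immune genes were also high in knockout 1 and control 2. H2-D1, a heavy chain of MHC class I, had 220 CPM in knockout 1 against 103 to 110 CPM in the other knockouts, and 190 CPM in control 2 against 87.9 to 127 CPM in the other controls. The 7 T and NK cell markers in the table summed to 14.2, 7.88, 7.7 and 8.77 CPM in knockouts 1 to 4 and to 4.36, 9.23, 3.93 and 8.65 CPM in controls 1 to 4. The 4 B cell markers summed to 4.07, 2.87, 1.55 and 1.66 CPM in knockouts and to 2.84, 9.29, 1.35 and 2.11 CPM in controls. Both sums were highest in knockout 1 and control 2 of their groups.

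Myeloid and pan-leukocyte markers did not all follow those libraries. The 8 macrophage markers summed to 349, 265, 202 and 249 CPM in knockouts and to 253, 313, 175 and 208 CPM in controls, again highest in knockout 1 and control 2. Single macrophage genes differed, however. Cd68 had its lowest knockout value in knockout 1 (18.7 CPM, where knockouts 2 to 4 had 20.3 to 25.6 CPM). Cd68, Mrc1, Adgre1 and C1qb had their highest control value in control 1 (40.1, 9.98, 9.72 and 56.6 CPM). Lyz2, which is on this list and gives the Cre line its name, stood at 46.9, 26.3, 0.367 and 25.4 CPM in knockouts 1 to 4. In controls 1 to 4 it stood at 2.28, 50.4, 32.1 and 27.3 CPM. Lyz2 was thus nearly absent in knockout 3 and control 1 (13 and 81 counts), the libraries that an alternative fit left out together. The cause was not tested. The 4 pan-leukocyte markers summed to 91.6, 64.4, 55.8 and 66.1 CPM in knockouts and to 140, 102, 56 and 67.9 CPM in controls, and the neutrophil sum in control 1 was 162 CPM against 49.5 CPM in control 2. Control 1 was thus the highest control for these last lists, while its inducible subunits were low. No marker on these lists stood at 0 in all 8 libraries (Ms4a1, a B cell marker, had 0 counts in control 3), and their part in the inducible subunits was not tested.

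Per gene length, each inducible subunit was a small fraction of its constitutive counterpart. Psmb8 stood at 13.3%, 10.5%, 9.06% and 10.6% of Psmb5 in knockouts 1 to 4 and at 7.06%, 9.04%, 5.08% and 5.45% in controls 1 to 4. The groups did not overlap, since the lowest knockout was just above the highest control. The difference in log2 ratio was 0.73, knockout minus control (two-sided exact permutation p = 0.0286, the smallest that 70 assignments of 4 against 4 allow), with all 4 knockouts above all 4 controls. It did not pass after adjustment over the 3 ratios (adjusted p = 0.0857). A single ratio at the smallest p cannot pass this adjustment on its own, so not passing decides nothing here. Psmb9 stood at 7.63%, 3.6%, 3.44% and 4.04% of Psmb6 in knockouts and at 2.53%, 5.61%, 2.4% and 3.44% in controls, a difference of 0.43 (exact permutation p = 0.286, adjusted p = 0.429) that ran from 0.16 to 0.68 when 1 library was left out. Psmb10 stood at 21.3%, 12.5%, 12.7% and 17% of Psmb7 in knockouts and at 10.1%, 22.5%, 14% and 19.2% in controls, a difference of -0.02 (exact permutation p = 0.943), and the last 2 ratios overlapped widely. Psmb9 shares 5.79% of its exonic bases with Tap1 on the opposite strand, with which it is also a neighbour in the MHC region, as is Psmb8.

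**Figure D3:**
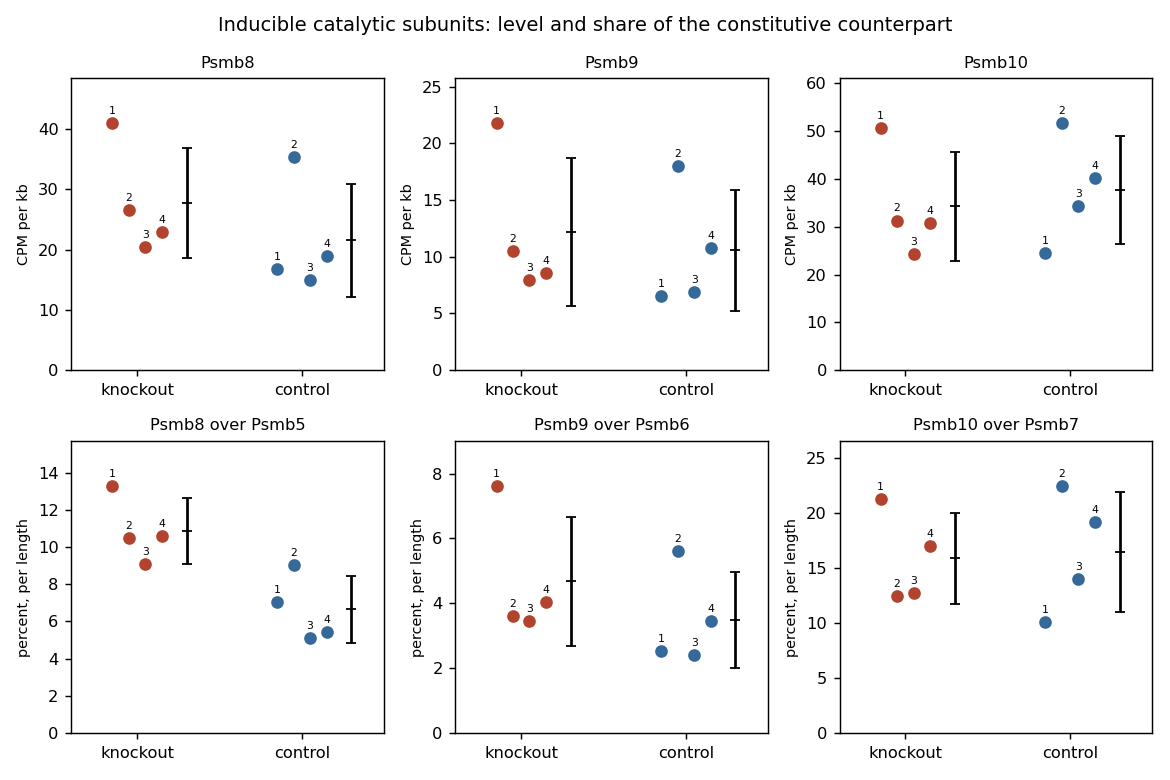
Upper panels give the level of the inducible subunits in CPM per kb of gene length, and lower panels give each as a percent of its constitutive counterpart per length, with 1 numbered point per library and the mean and 1 SD of 4 libraries. Knockout 1 and control 2 are the highest points of their group in all 6 panels, and the groups are apart only for Psmb8 over Psmb5, at 9.06% to 13.3% in knockouts and 5.08% to 9.04% in controls.

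In the ATPase ring of the base, which unfolds substrates, 0 of 6 genes passed by edgeR (3 at an unadjusted p under 0.05; 0 in DESeq2 and 2 in limma-voom), with a median log2 fold change of -0.28. Psmc6 had 46.0, 42.5, 58.9 and 53.7 CPM in knockouts and 89.3, 56.1, 70.8 and 57.2 CPM in controls. Knockout 3 lay above controls 2 and 4, and control 1 was the highest library (log2 fold change -0.44, SE 0.17, adjusted p = 0.114 in edgeR). Psmc1 had 188, 185, 157 and 162 CPM in knockouts and 212, 208, 205 and 198 CPM in controls. These groups were apart, with a log2 fold change of -0.25 (adjusted p = 0.138 in edgeR). Psmc4 had 172, 153, 142 and 134 CPM in knockouts and 173, 210, 162 and 203 CPM in controls, and knockout 1 lay above control 3 (log2 fold change -0.31, adjusted p = 0.133 in edgeR). The other 3, Psmc2, Psmc3 and Psmc5, had overlapping groups and log2 fold changes of -0.12, -0.11 and -0.30.

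The 3 other genes of the base, large scaffolds and a ubiquitin receptor, were apart between the groups in every case, and 2 of them fell. Of all genes tested, 10.6% were apart in this direction and 6.28% fell. Psmd2, a scaffold that docks ubiquitin-like shuttle factors, had 271, 267, 270 and 268 CPM in knockouts and 343, 343, 346 and 350 CPM in controls. With means of 269 ± 1.81 and 346 ± 3.44 CPM (SD, n = 4 each), both groups were tight, and it fell 1.28-fold (log2 fold change -0.36, SE 0.10, adjusted p = 0.0345 in edgeR). Psmd4, the ubiquitin receptor, had 178, 159, 146 and 148 CPM in knockouts and 198, 224, 192 and 206 CPM in controls. It fell 1.30-fold (log2 fold change -0.38, SE 0.11, adjusted p = 0.0489 in edgeR), just past the threshold. Psmd1, the other scaffold, had 130, 122, 136 and 118 CPM in knockouts and 193, 152, 177 and 143 CPM in controls, and with a log2 fold change of -0.39 it did not pass (adjusted p = 0.0605 in edgeR). With 1 library left out, the log2 fold change of Psmd2 stayed between -0.37 and -0.35, and its call was kept without knockout 1 or control 1 and lost in the other 6 fits (edgeR adjusted p = 0.0592 to 0.0992). That of Psmd4 stayed between -0.44 and -0.33, and its call was kept only without knockout 1 (0.031, against 0.0569 to 0.133 in the others).

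In the lid 1 of 8 genes fell, where 6.28% of all genes tested fell. In this part 0 rose and 7 did not pass, with a median log2 fold change of -0.29. Psmd11, a scaffold of the lid that contacts the core, had 86.7, 97.4, 103 and 101 CPM in knockouts and 144, 117, 152 and 131 CPM in controls. Every knockout was below every control, and it fell 1.40-fold (log2 fold change -0.49, SE 0.12, adjusted p = 0.0239 in edgeR). The call was lost without knockout 2, knockout 4 or control 3 (adjusted p = 0.0689 in edgeR, 0.0612 and 0.0723). Psmd8, a lid subunit, had 244, 242, 188 and 184 CPM in knockouts and 301, 278, 279 and 269 CPM in controls, also apart, and did not pass (log2 fold change -0.39, adjusted p = 0.0713 in edgeR). Psmd7, the partner of the deubiquitinase, had 143, 136, 134 and 121 CPM in knockouts and 178, 150, 170 and 153 CPM in controls, apart as well (log2 fold change -0.29, adjusted p = 0.107 in edgeR).

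The other lid genes, except Psmd3, also had log2 fold changes below 0, and none of them passed. Psmd14, the deubiquitinase that removes the chain from the substrate, had 54.2, 56.1, 59.4 and 53.3 CPM in knockouts and 97.3, 56.1, 81.4 and 53.3 CPM in controls. The knockouts were tight while controls 1 and 3 stood high (log2 fold change -0.37, adjusted p = 0.215 in edgeR). Psmd3, named because it was the 1 member with all knockouts above all controls, had 305, 302, 297 and 279 CPM in knockouts and 258, 272, 258 and 268 CPM in controls. The log2 fold change was 0.16 (95% interval -0.05 to 0.38) and did not pass (adjusted p = 0.302 in edgeR). Psmd6, Psmd12 and Psmd13 had log2 fold changes of -0.28, -0.25 and -0.26 with overlapping groups; Psmd13 shares 10.1% of its exonic bases with Sirt3 on the opposite strand.

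Among the activators that can cap the core in place of the 19S particle, and the inhibitor Psmf1, 0 of 6 passed by edgeR (1 at an unadjusted p under 0.05; 1 in DESeq2 and 1 in limma-voom), with a median log2 fold change of -0.22. Psme3, the subunit of the nuclear activator, was the nearest. It had 168, 168, 159 and 164 CPM in knockouts and 199, 191, 215 and 202 CPM in controls, apart between the groups (log2 fold change -0.29, SE 0.10, adjusted p = 0.0696 in edgeR). Psmf1 had 41.0, 36.8, 40.5 and 34.3 CPM in knockouts and 41.9, 42.6, 43.9 and 48.3 CPM in controls, a narrow separation (log2 fold change -0.21, adjusted p = 0.216 in edgeR). The interferon-inducible activator, of Psme1 and Psme2, overlapped between the groups. Psme1 had 126, 104, 69.5 and 77.6 CPM in knockouts and 68.0, 111, 80.8 and 90.1 CPM in controls, with knockout 1 and control 2 again the highest of their groups (log2 fold change 0.10, and -0.1 in limma-voom). Psme2 had 82.6, 74.1, 48.6 and 56.4 CPM in knockouts and 64.6, 95.5, 81.9 and 81.0 CPM in controls (log2 fold change -0.30, adjusted p = 0.3 in edgeR). Reads of Psme2 can be shared with its near copy Psme2b (log2 fold change -0.23), so the split between them is uncertain. Psme4, the activator that recognises acetylated histones, had a log2 fold change of -0.06, which turned to 0.05 in limma-voom.

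Of the 4 chaperones that assemble the core, 1 fell, 0 rose and 3 did not pass, where 6.28% of all genes tested fell. Psmg2, which pairs with Psmg1 to guide the alpha ring, had 24.8, 20.8, 21.5 and 17.6 CPM in knockouts and 28.6, 30.3, 26.9 and 30.3 CPM in controls. The groups were apart, and it fell 1.37-fold (log2 fold change -0.45, SE 0.13, adjusted p = 0.0433 in edgeR). Its partner Psmg1 had overlapping groups and a log2 fold change of -0.08, whose direction was not steady over the alternatives. Psmg4 had 24.7, 21.8, 15.1 and 18.4 CPM in knockouts and 23.2, 29.8, 23.8 and 26.2 CPM in controls (log2 fold change -0.37, adjusted p = 0.174 in edgeR), and its partner Psmg3 had 25.2, 19.7, 20.8 and 16.8 CPM in knockouts and 21.4, 26.9, 20.6 and 24.7 CPM in controls (log2 fold change -0.18). Knockout 1 stood among the controls for both. The call of Psmg2 held without knockout 1 (adjusted p = 0.0257 in edgeR) and was lost without any 1 of the other 7 libraries (0.0631 to 0.118).

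Of the 3 chaperones that assemble the base, 1 fell (6.28% of all genes tested did), and it had the largest fall of all 48 members. Psmd10, or gankyrin, which holds an ATPase during assembly and is also known as a binder of cell cycle and p53 regulators, had 31.8, 25.9, 25.6 and 23.5 CPM in knockouts and 42.8, 43.0, 41.2 and 40.4 CPM in controls. Means were 26.7 ± 3.57 and 41.8 ± 1.24 CPM (SD, n = 4 each), a 1.57-fold fall (log2 fold change -0.65, SE 0.12, adjusted p = 0.00764 in edgeR). It was the 1 member that passed in all 18 alternatives. Psmd5 had 63.9, 82.6, 69.1 and 65.8 CPM in knockouts and 103, 82.5, 91.6 and 79.9 CPM in controls, with knockout 2 among the controls (log2 fold change -0.34, adjusted p = 0.0979 in edgeR). Psmd9 had 48.9, 38.5, 42.3 and 35.8 CPM in knockouts and 31.7, 54.6, 34.9 and 49.9 CPM in controls. Controls 1 and 3 were low and controls 2 and 4 high, so its log2 fold change of -0.05 had no steady direction.

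Psmc3ip, which the naming rule takes in, is no proteasome subunit but a partner of the recombination machinery. It had 5.4, 5.91, 4.96 and 5.54 CPM in knockouts and 7.28, 5.66, 4.61 and 5.54 CPM in controls, with a log2 fold change of -0.08. It also had the lowest length-scaled level, 5.61 CPM per kb in knockouts and 5.94 CPM per kb in controls, where Psmb4, the highest, had 373 CPM per kb in knockouts and 472 CPM per kb in controls. Its closest members from below were Psmb9 and Psmf1, at 11.4 and 11.6 CPM per kb over all 8 libraries. The plot of length-scaled levels shows that subunits of 1 ring were not equal in mRNA: Psmb4 stood at 422 CPM per kb over all libraries and its fellow beta subunits lower, and the inducible subunits lay apart from the constitutive ones at 24.6 CPM per kb for Psmb8 and 36.0 CPM per kb for Psmb10, against 284 CPM per kb for Psmb5. Psmc3ip shares 21.2% of its exonic bases with Mlx on the opposite strand.

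**Figure D4:**
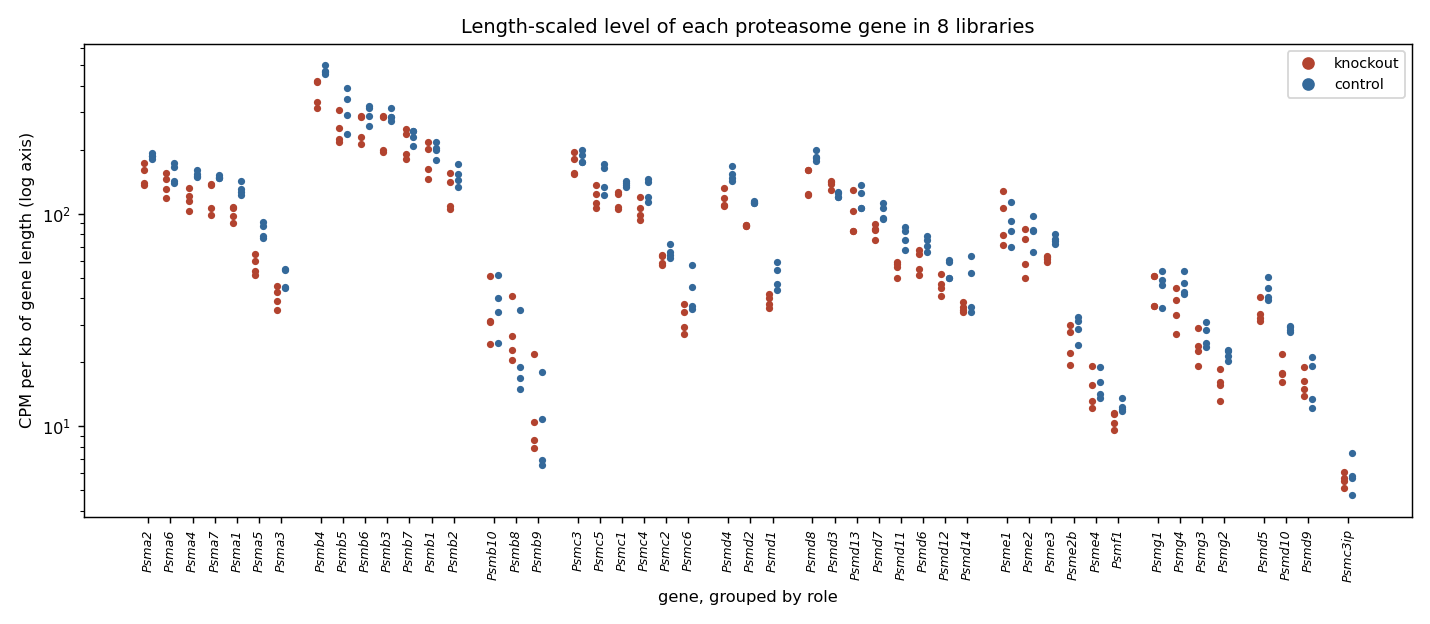
Length-scaled level (CPM per kb of gene length, log axis) of the 48 proteasome genes in 8 libraries, 1 point per library, knockouts left of controls, genes ordered within their role by mean level. The levels run from 5.77 (Psmc3ip) to 422 CPM per kb (Psmb4) as means over all libraries, and every point of a constitutive beta subunit lies above every point of an inducible one.

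Within the groups, members did not vary as 1 block. The deviations of log2 CPM from the group mean followed the GC content of the transcript, which ran from 37% to 57.4% over the 48 members. Over members, Pearson's r between deviation and GC content was 0.57, 0.15, -0.58 and -0.39 in knockouts 1 to 4 and -0.66, 0.62, -0.51 and 0.63 in controls 1 to 4. In knockout 1, control 2 and control 4 the GC-rich members were high, and in knockout 3, knockout 4, control 1 and control 3 the GC-poor ones. These are descriptions over genes of 1 library, which share its preparation and depth, and carry no p. The log2 fold change had an r of 0.36 with GC content, -0.04 with log2 gene length and -0.22 with mean log2 CPM over the 48 members.

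In a further fit each library's trends on gene length and GC content were removed. There edgeR called 17 members lower and 0 higher, where 10.6% of all genes were called lower. The median log2 fold change was -0.27 for members and -0.039 for all genes, against -0.29 and -0.01 in the main test. Of all genes called in this fit, 41.6% rose. In that fit Psma4 missed the threshold (adjusted p = 0.0646 in edgeR) and the other 7 genes that fell above still passed. By role, 3 of 7 alpha, 2 of 7 beta, 0 of 3 inducible, 2 of 6 ATPase, 3 of 3 other base, 2 of 8 lid and 2 of 6 activator or inhibitor genes fell, with 2 of 4 chaperones of the core and 1 of 3 of the base.

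**Figure D5:**
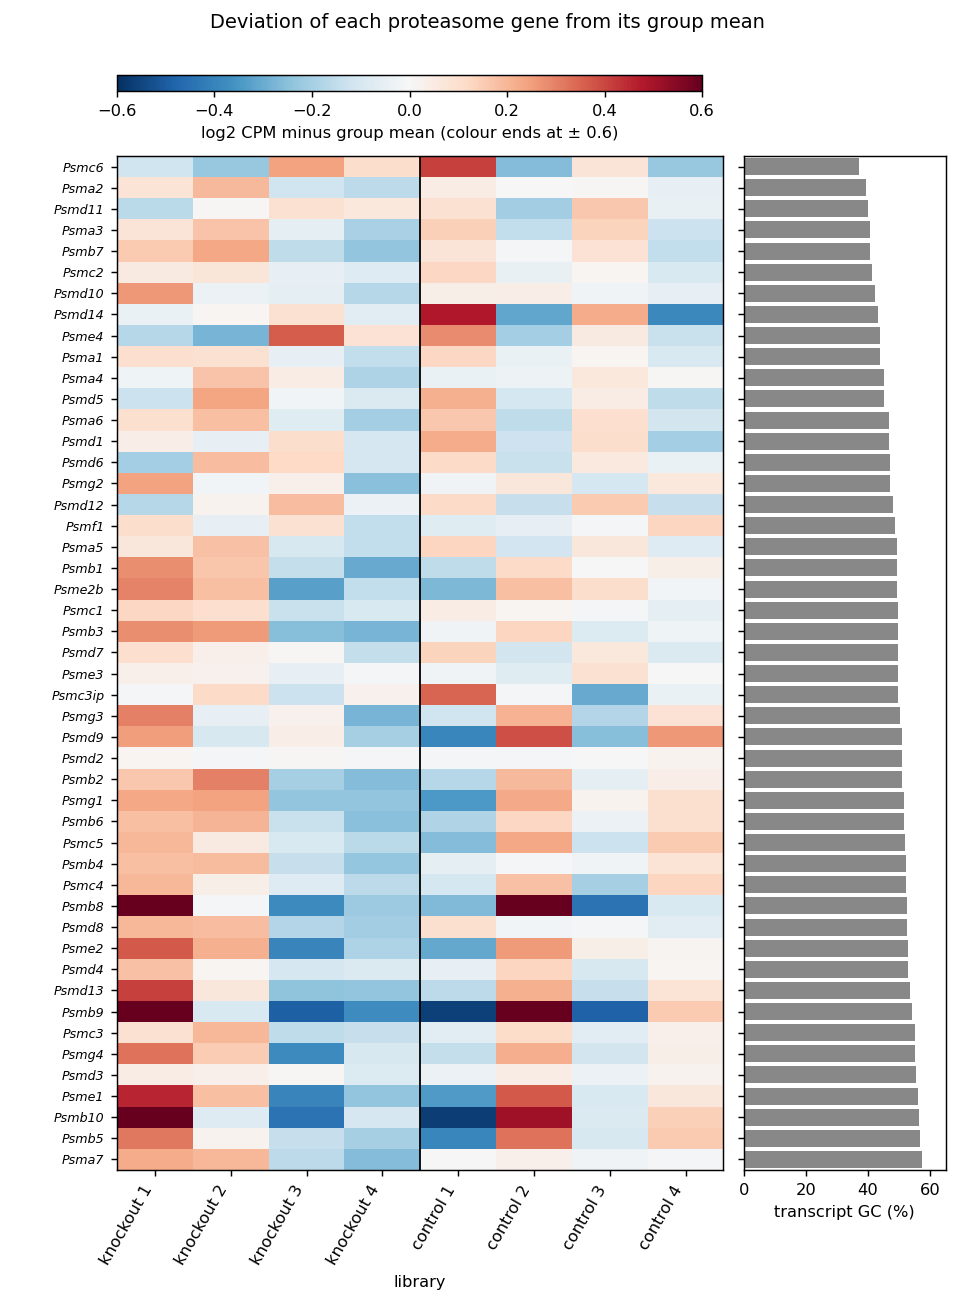
Deviation of log2 CPM from the group mean for 48 proteasome genes (rows, by rising transcript GC content, shown at right in percent) in 8 libraries (columns, knockouts left of controls). The GC-rich lower rows are red in knockout 1 and control 2 and blue in knockout 3, and control 1 shows the reverse of control 2, with r of -0.66 and 0.62 between deviation and GC content.

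The inducible subunits had the largest deviations, and other members shared their pattern. Over the 8 libraries with the group means removed, Psmb9 had its highest correlations with Psmd4 (r = 0.97), Psmb8 (0.96), Psmd13 (0.94) and Psmb10 (0.94), and its lowest with Psmd11 (-0.97) and Psmd12 (-0.86). Psmc6 went with Psme4 (0.94) and Psmd14 (0.83) and against Psmg1 (-0.92) and Psmc5 (-0.9). Psmd4 and Psmd11, which both fell between the groups, thus had opposite patterns within them. The points share libraries and group centring, and no p is given.

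Around the proteasome, 73 symbols of the pathway were listed, alternative names included, and 67 were measured: by edgeR 6 fell (8.96%, against 6.28% of all genes, so near the background), 0 rose (2 higher at an unadjusted p under 0.05; 1 in DESeq2 and 1 in limma-voom) and 61 did not pass. DESeq2 called 14 of the 67 lower, where it called 10% of all genes lower, and limma-voom called 17, where it called 9.65% lower. Among 3 further subunits and assembly factors 1 fell. Adrm1, a ubiquitin receptor of the 19S base, had 195, 204, 215 and 198 CPM in knockouts and 274, 264, 248 and 263 CPM in controls. It fell 1.29-fold with the groups apart (log2 fold change -0.37, SE 0.10, adjusted p = 0.0354 in edgeR), and missed the threshold without any 1 library (0.0558 to 0.101). Pomp, which matures the beta ring, had 191, 141, 110 and 116 CPM in knockouts and 157, 201, 168 and 188 CPM in controls and did not pass (log2 fold change -0.36, adjusted p = 0.216 in edgeR), nor did Sem1, the small lid subunit (-0.16).

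Of 17 proteins that associate with the proteasome 1 fell, where 6.28% of all genes tested fell. Txnl1, a thioredoxin of the 19S particle, had 86.2, 83.8, 90.2 and 79.0 CPM in knockouts and 125, 109, 120 and 117 CPM in controls. It fell 1.39-fold (log2 fold change -0.47, SE 0.10, adjusted p = 0.0127 in edgeR), with the groups apart, and passed in all 8 fits that left out 1 library. Neither of the deubiquitinases Usp14 (log2 fold change -0.38) and Uchl5 (-0.37) passed, at an edgeR adjusted p = 0.161 and 0.129.

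Of 11 genes of the NRF1 pathway 1 fell, where 6.28% of all genes tested fell. Nfe2l1 itself had 346, 354, 337 and 357 CPM in knockouts and 306, 248, 279 and 237 CPM in controls, the opposite direction to most subunits. The groups were apart, and the log2 fold change of 0.38 (SE 0.12) did not pass (adjusted p = 0.0553 in edgeR); DESeq2 (0.00471), limma-voom (0.0109) and edgeR without control 1 (0.0291) did call it. Maff, a small partner of NRF1 and related factors, had 14.9, 12.9, 14.8 and 16.0 CPM in knockouts and 71.6, 33.8, 40.0 and 38.8 CPM in controls. It fell 3.14-fold (log2 fold change -1.65, SE 0.23, adjusted p = 0.00241 in edgeR), and control 1 stood far above the other controls.

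Among 9 genes of the response to damaged proteins 1 fell by edgeR, where 6.28% of all genes tested fell. At an unadjusted p under 0.05, 6 were lower, against 14.6% of all genes. DESeq2 called 6 lower and limma-voom 5, against 10% and 9.65% of all genes. All 9 had a log2 fold change below 0, with a median of -0.4. Summed, they stood at 2837 to 3407 CPM in knockouts and 4482 to 4835 CPM in controls. Most of this sum came from Hspa8 and Sqstm1, and neither passed by edgeR. Hspa8 overlapped, at 1700 to 2290 CPM in knockouts and 2150 to 3110 CPM in controls. Sqstm1 had 748 to 830 CPM in knockouts and 1010 to 2070 CPM in controls, with control 1 the highest. Hspb1, a small heat shock protein, had 47.3, 25.5, 23.6 and 34.5 CPM in knockouts and 182, 123, 90.8 and 116 CPM in controls, a 3.92-fold fall (log2 fold change -1.97, SE 0.26, adjusted p = 0.00223 in edgeR). Every knockout lay far below every control. None of 6 ubiquitin genes and E1 enzymes passed by edgeR (2 lower at an unadjusted p under 0.05; 1 in DESeq2 and 2 in limma-voom). Ubb, a polyubiquitin gene, was narrowly apart at 1040 to 1240 CPM in knockouts and 1250 to 1670 CPM in controls. Rps27a was apart by more, at 84.7 to 235 CPM in knockouts and 278 to 433 CPM in controls (log2 fold change -0.93, adjusted p = 0.0605 in edgeR).

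None of 10 genes of MHC class I processing passed (edgeR; 1 lower at an unadjusted p under 0.05; 0 in DESeq2 and in limma-voom). Of 12 regulators of the interferon-gamma response 2 fell (6.28% of all genes tested did), and these were the 2 chains of the receptor. Ifngr2 had 44.2, 37.8, 38.3 and 33.6 CPM in knockouts and 97.3, 65.3, 75.9 and 69.0 CPM in controls (log2 fold change -1, SE 0.15, adjusted p = 0.0032 in edgeR). Ifngr1 had 37.2, 37.4, 41.4 and 31.2 CPM in knockouts and 61.3, 47.2, 62.9 and 44.7 CPM in controls (log2 fold change -0.55, SE 0.15, adjusted p = 0.0342 in edgeR). Both were apart between the groups, while the interferon-inducible subunits were not. The call of Ifngr1 was kept without control 2 or control 4 and lost in the other 6 fits that left out 1 library (edgeR adjusted p = 0.0519 to 0.102).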

How the data were processed

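Whole-kidney RNA-seq of 4 knockout and 4 control libraries was used. The authors deposited raw counts per gene with a gene length. Per the submitters' processing notes, HISAT2 2.2.1, Salmon 1.10.2, Trim Galore 0.6.2, FastQC and the build mm39 were used; no source used here names the counting program, annotation or filters. Per the labels' protocols, the NEBNext Ultra RNA kit, which does not mark strand, was used. The deposited table's identifiers belong to other genes than its symbols: of 18423 identifiers in the reference names, 13 (0.0706%) belonged to the symbol of their row. Deposited gene lengths had a rank correlation across genes of 0.83 with transcript lengths found by symbol and 0.004 by identifier, so genes were taken by symbol; the counts themselves cannot be checked this way. Among deposited counts of 1 to 20, 68.7% to 70.9% per library were even, against 49.5% to 50.4% of counts over 100, so a count may stand for less than 1 fragment. Totals of 29044405 to 35530421 counts limit counting error only; spread was taken over replicate libraries.

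Genes were tested in edgeR 4.0.16 (R 4.3.3) with filterByExpr (minimum count 10), TMM, glmQLFit and glmQLFTest of knockout over control without covariates; p-values were Benjamini-Hochberg adjusted over 15000 genes. Log2 CPM used a prior count of 2; SE came from the F statistic. Ratios of subunits had a two-sided exact permutation test (70 assignments). Alternatives were DESeq2 1.42.0, limma 3.58.1 (voom with quality weights), RLE, upper-quartile or no composition factors, no filter, the replicate number as a block, offsets for length and GC content (longest transcript of GENCODE M21, matched by symbol for 48 members and 14760 tested genes), and leaving out libraries. The test was checked on simulated data, where it missed most genes with changes as small as those of most members. Not passing therefore does not show that a member was unchanged. Promoters came from RefSeq (GRCm38.p6); no other coordinates are given, since the data use mm39. Overlaps between genes are exonic bases in GENCODE M21.

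Members, lists and tests were chosen with earlier results of these data known. Values per library are given for members that passed, catalytic subunits, up to 3 members per role by smallest p, the extremes in length-scaled level, and, of the pathway lists, genes that passed and Nfe2l1. Psma2, Psma7, Psmd3, Psmd14, Psme1, Pomp, Ubb, H2-D1 and others outside this rule were named after their values were seen. No library pair agreed within sampling noise.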

Additional observations from a re-analysis of the deposited data

Results flagged for a closer look

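Over 116 groups of 4 libraries, 1 library stood far from the other 3 in 2 cases, where chance gives about 1 in 20. Maff, the small partner of NRF1, stood at 71.6 CPM in control 1 and at 33.8 to 40 CPM in the other controls. All 4 knockouts were below every control with or without that library. Psmb9 stood at 7.63% of Psmb6 per length in knockout 1 and at 3.44% to 4.04% in the other knockouts. That library also had the highest levels of Psmb8 and Psmb10 among the knockouts, and the highest sum of T and NK cell markers among all 8 libraries; their part was not tested.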

How the results depend on the processing

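Over 18 alternatives the median log2 fold change of the 48 proteasome genes ran from -0.32 to -0.23 and the count that rose was 0. The count that fell was 8 in the main test, 11 in DESeq2, 7 with RLE or upper-quartile factors, 4 with library totals only, 3 without the filter, 16 in limma-voom, 17 with length and GC trends removed, 1 to 7 when 1 library was left out, 1 with control 1 and knockout 3 left out, and 4 with control 2 and knockout 1 left out, a setting chosen after seeing the data. The replicate number as a block left 1, Psmd10. Same-numbered libraries had correlations of -0.198, 0.036, 0.153 and -0.161 in their deviations over all genes. These values show no sign of a pairing by number, but so few values cannot exclude one. Of the pathway genes 6 fell in the main test, 14 in DESeq2, 17 in limma-voom, 15 with length and GC trends removed and 4 to 7 when 1 library was left out; 1 rose in DESeq2, in limma-voom and without control 1 (0 to 1 when 1 library was left out). The difference in log2 ratio ran from 0.61 to 0.89 for Psmb8 over Psmb5, from 0.16 to 0.68 for Psmb9 over Psmb6 and, for Psmb10 over Psmb7, from -0.24 to 0.15 when 1 library was left out. Direction also turned for Psmb10 (0.05 without control 2, -0.39 to 0.05 over libraries left out), Psmb9 (-0.15 in limma-voom, -0.23 without knockout 1, up to 0.59), Psmc3ip (0.05 without control 1, down to -0.18, and 0.09 without control 1 and knockout 3 together), Psme1 (-0.1 in limma-voom to 0.24), Psme4 (-0.2 to 0.05 in limma-voom), Psmg1 (-0.23 to a value that rounds to 0, without control 2) and Psmd9 (-0.17 without control 1, 0.02 without knockout 4, 0.09 without control 2, 0.03 without control 4, 0 without control 2 and knockout 1 together); the cause was not tested. Of the alternatives for single genes, 544 kept direction and side of the threshold, 93 lost the call, 20 gained it and 9 turned. With 4 libraries a group, an exact test cannot go below 0.0286. Between pairs of libraries of a group the spread was larger than counting error. This need not hold for every single gene, such as the tight Psmd2.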
